A study of Mus musculus with 4 samples.

Results

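This section describes smooth muscle cells of mouse popliteal vessels in which the lineage reporter tdTomato was or was not seen in the RNA. A muscle cell was a barcode with at least 1 transcript in at least 3 of Myh11, Cnn1, Lmod1 and Synpo2, 4 genes of the smooth muscle contractile machinery. Transcripts were counted as unique molecular identifiers (UMIs), the tags that mark single captured RNA molecules in droplet sequencing. Of 3435 cells kept in 3 libraries, 958 were muscle cells, and 318 of these had at least 1 tdTomato UMI (called detected here) while 640 had 0 (undetected). The groups were chosen by their measured tdTomato UMIs, so the reporter's own values below are a description. Each detected cell was paired within its library with an undetected cell of nearly the same UMI total, which gave 297 pairs and left 21 detected cells without a partner. Of the muscle cells, 285 sat just inside the rule with exactly 3 of the 4 genes, and 153 kept cells sat just outside it with 2.

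All mice carried a Wt1 knock-in allele that makes a fusion of EGFP and Cre, Wt1tm1(EGFP/cre)Wtp, together with the Ai9 reporter, Gt(ROSA)26Sortm9(CAG-tdTomato)Hze. They were adult, were anaesthetised with K/X and received 4% Evans blue in the footpad. The libraries named PLV replicate 1 and PLV replicate 2 held popliteal lymphatic vessels of 2 pooled mice each, digested for 30 minutes with collagenase I, Dispase II, DNase and Liberase. The mixed library held lymphatic vessels together with cells labelled BV from 1 pool of 2 mice, digested for 60 minutes without DNase and Liberase. Muscle cells of both vessels are pooled in it here, so vessel, digestion, run and animals cannot be told apart between it and the PLV libraries. All groups shared both alleles and the dye, and no library without Cre or without the reporter was analysed here.

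Wt1 encodes a zinc finger transcription factor of the mesothelium, the epicardium and the developing kidney and gonad. In a Cre reporter cross of this kind, Cre removes a stop cassette from the reporter, and the change to the DNA passes to all daughter cells, so the reporter marks present or past activity of the Cre allele and not present Wt1 expression. A cell in which the cassette was removed can still give no tdTomato UMI, because a droplet captures a small part of a cell's RNA. Muscle cells of collecting lymphatic vessels combine a smooth muscle contractile apparatus with spontaneous pacemaking, and the calcium-activated chloride channel Ano1 takes part in that pacemaking.

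The kept cells held 9611078 UMIs in PLV replicate 1, 3466668 in PLV replicate 2 and 7814616 in the mixed library, and no kept barcode was shared between libraries. The muscle label was checked against genes the rule did not use: Acta2, Tagln and Myl9 each had a UMI in 98.6% to 99.6% of the muscle cells of a library and in 8.87% to 27.1% of the cells outside the rule. Rgs5, which pericytes share with smooth muscle, had a UMI in 41.7% to 48.7% of muscle cells. Ptprc, which marks leukocytes, was seen in 1 muscle cell of PLV replicate 1 and in none of the others. Pecam1, which marks endothelium, had a UMI in 8.16% of muscle cells in PLV replicate 1, 5.31% in PLV replicate 2 and 3% in the mixed library. Doublet calling marked 5 of the muscle cells and 14 of all kept cells, so undetected doublets can remain. Xist, expressed from the inactive X chromosome, gave 6275 UMIs in PLV replicate 1, 2114 in PLV replicate 2 and just 1 in the mixed library.

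The reporter RNA was sparse. In PLV replicate 1, 94 of 478 muscle cells had a tdTomato UMI, 19.7% with an exact 95% Clopper-Pearson interval of 16.2% to 23.5%. In PLV replicate 2 the share was 50 of 113 cells, or 44.2% (34.9% to 53.9%). In the mixed library it was 174 of 367 cells, or 47.4% (42.2% to 52.7%). The interval of PLV replicate 1 lay below those of both other libraries, whose intervals overlapped each other. These intervals, and those below, cover counting error only. With at least 2 UMIs required, the shares were 5.23%, 17.7% and 27.2% in the same order.

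Summed over cells, tdTomato stood at 44.2 CPM (UMIs of a gene scaled to a library total of 1e+06; exact Poisson interval 36.8 to 52.7) in the muscle cells of PLV replicate 1. PLV replicate 2 had 92.5 CPM (73.7 to 114.7), and the mixed library had 125.2 CPM (112.7 to 138.7). The order of the libraries was the same for level and share, and so was the order of depth, since the median muscle cell had 4821, 6919 and 7471 UMIs. After each cell was thinned at random to 1500 UMIs, the share with a tdTomato UMI was 34 of 460 cells (7.39%), 15 of 111 (13.5%) and 62 of 350 (17.7%), with 18, 2 and 17 cells left out as too shallow. The interval of the thinned share was 5.17% to 10.2% in PLV replicate 1 and 13.9% to 22.1% in the mixed library, and these do not overlap. That of PLV replicate 2, 7.77% to 21.3%, overlapped both, so after thinning its share was no longer set apart from PLV replicate 1.

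Cells with at least 3 leukocyte genes were assumed to lack the reporter and were set beside the muscle cells as a background. No library without Cre was analysed to check this, and the source of their tdTomato UMIs was not tested. Of the leukocytes in PLV replicate 1, 3 of 177 (1.69%) carried a tdTomato UMI. The counts were 4 of 32 (12.5%) for PLV replicate 2 and 6 of 35 (17.1%) for the mixed library. Their median totals were 2556, 5569 and 5322 UMIs, below those of the muscle cells. Their tdTomato level was 5.20, 18 and 45.9 CPM, with exact Poisson intervals of 1.07 to 15.2, 4.91 to 46.1 and 22.0 to 84.3. These lay below the intervals of the muscle cells in each library. After thinning to 1500 UMIs, 1 of 151, 0 of 32 and 0 of 33 of these cells kept a tdTomato UMI, and after thinning to 1000 UMIs, a separate draw, 2 of 168, 1 of 32 and 2 of 35 did. Muscle cells kept one in 4.94%, 8.04% and 11.7% after the latter. At 1500 UMIs the intervals of leukocytes and muscle cells overlapped in PLV replicate 2 alone, at 0% to 10.9% and 7.77% to 21.3%. At 1000 UMIs they overlapped in every library, so the shares at that depth do not set the groups apart. In the mixed library, whose deposited matrix also holds empty droplets, 185412 droplets with fewer than 50 UMIs gave tdTomato at 59.0 CPM (44.9 to 76.1). The level in its muscle cells was above that of its empty droplets, and their intervals did not overlap.

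Muscle cells were not the sole carriers of the reporter RNA. Among the remaining kept cells, neither muscle nor leukocyte, 11.6%, 21.7% and 30.8% had a tdTomato UMI, at 37.9, 63.9 and 92.2 CPM. Cells just outside the rule, with 2 of its 4 genes, had a share of 14.8%, 35% and 51.1%. Wt1 itself (chr2:105126529-105173616, plus strand, in the GRCm38 annotation of GENCODE M21) had 0 UMIs in all kept cells of the 3 libraries. In muscle cells that allows a level of up to 1.07, 3.34 and 1.03 CPM, the level of 3 UMIs.

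**Figure D1:**
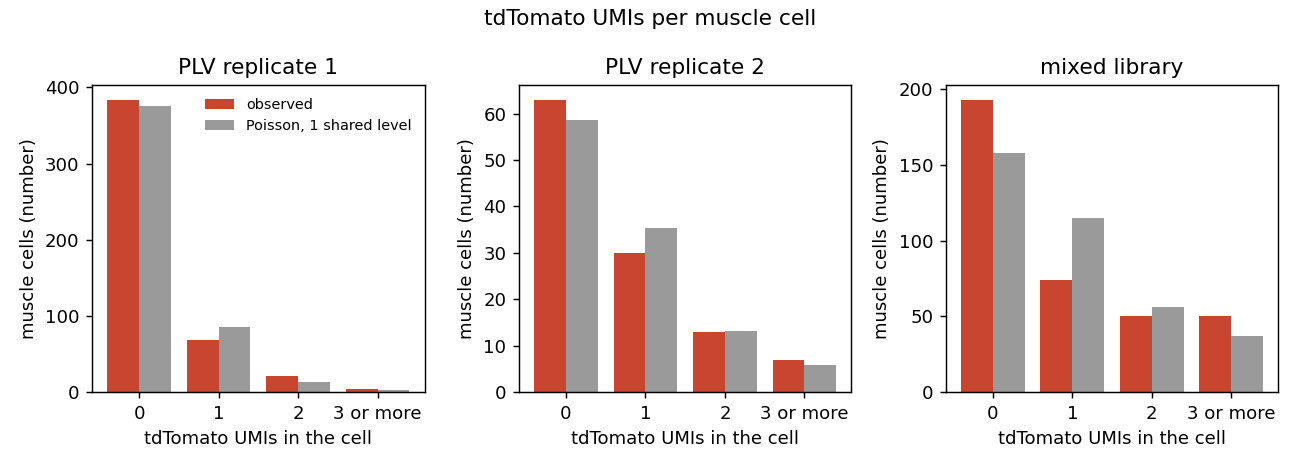
Number of muscle cells (y axis) with 0, 1, 2 or at least 3 tdTomato UMIs (x axis) in each library, with the observed number in red and the number that Poisson counting at 1 shared tdTomato level would give in grey. At 0 UMIs the bars are close in PLV replicate 1, with 384 cells where the shared level gives 375.6, and further apart in the mixed library, with 193 and 158.1.

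A cell with 0 UMIs need not lack the transcript. If all muscle cells of a library held the same tdTomato fraction of their RNA, Poisson counting at each cell's depth would leave 375.6 cells at 0 in PLV replicate 1, where 384 were seen. It would leave 58.7 in PLV replicate 2, where 63 were seen, and 158.1 in the mixed library, where 193 were seen. The variance of the counts over the Poisson value was 1.07, 1.51 and 1.87 in that order. Setd5, a widely expressed gene beside the reporter's locus, gave 1.23, 1.07 and 1.37 on the same measure, at 98.4, 120.4 and 115.2 CPM. At an equal relative spread between cells, this ratio grows with a gene's level. P2rx1, an ATP-gated cation channel with a level of 101.6, 95.9 and 208.3 CPM, gave 2.23, 2.84 and 6.04. Sorbs2, an adaptor protein of the cytoskeleton with a level of 1079, 1327 and 265.0 CPM, gave 12.4, 18.3 and 16.4, so level alone did not order the values. The spread of tdTomato in PLV replicate 1 was below that of Setd5, and in the mixed library it was above that of Setd5 and below that of Ano1 (2.58). At least 3 tdTomato UMIs were seen in 4 cells of PLV replicate 1 where a shared level gives 3.29, in 7 of PLV replicate 2 where it gives 5.89, and in 50 of the mixed library where it gives 37.3. Cells with exactly 1 UMI were fewer than a shared level gives, at 69 for 85.3, 30 for 35.3 and 74 for 115.1. The highest count in a cell was 4, 5 and 8 UMIs.

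Deeper cells more often had a tdTomato UMI. With the muscle cells of PLV replicate 1 ordered by UMI total and cut in 3 parts of nearly equal size, the share with a tdTomato UMI was 6.88% in the shallowest cells, 22.0% in the middle and 30.2% in the deepest. In PLV replicate 2 it was 36.8%, 42.1% and 54.1%, and in the mixed library 38.2%, 50.8% and 53.3%. The intervals of the shallowest and deepest cells overlapped in PLV replicate 2, at 21.8% to 54.0% and 36.9% to 70.5%, and in the mixed library, at 29.6% to 47.4% and 44.0% to 62.4%. The tdTomato level did not follow the same order. From shallow to deep it was 124.1, 96.0 and 80.3 CPM for PLV replicate 2. It was 178.0, 140.6 and 102.6 CPM for the mixed library and 27.4, 53.1 and 44.5 CPM for PLV replicate 1.

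The unmatched groups differed in depth. Detected and undetected cells had median totals of 6173 and 4559.5 UMIs in PLV replicate 1, 7799 and 6532 in PLV replicate 2, and 7860.5 and 6414 in the mixed library. After pairing, the medians were 5839 and 5825, 6964 and 6989.5, and 7759.5 and 7503.5. The pairs numbered 89, 42 and 166. Other cell measures were not used for the pairing. Mitochondrial RNA took a median of 4.88% in detected and 5.07% in undetected cells of PLV replicate 1, 5.37% and 4.55% in PLV replicate 2, and 3.66% and 4.03% in the mixed library. Neither group was higher in all 3 libraries. The median share of ribosomal protein RNA was higher in detected cells in all 3, at 8.27% against 7.85%, 6.79% against 6.75% and 8.30% against 8.18%. That of haemoglobin RNA was lower in all 3, at 0.0360% against 0.0370%, 0.00389% against 0.00897% and 0.0104% against 0.0112%. These medians were not tested, and an exact sign-flip test on 3 paired libraries cannot go below p = 0.25. Sums of red cell markers did not follow the haemoglobin medians. They were 1295 against 729.1 CPM in detected and undetected cells of PLV replicate 1. The other sums were 129.1 against 145.9 CPM in PLV replicate 2 and 135.7 against 134.8 CPM in the mixed library.

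**Figure D2:**
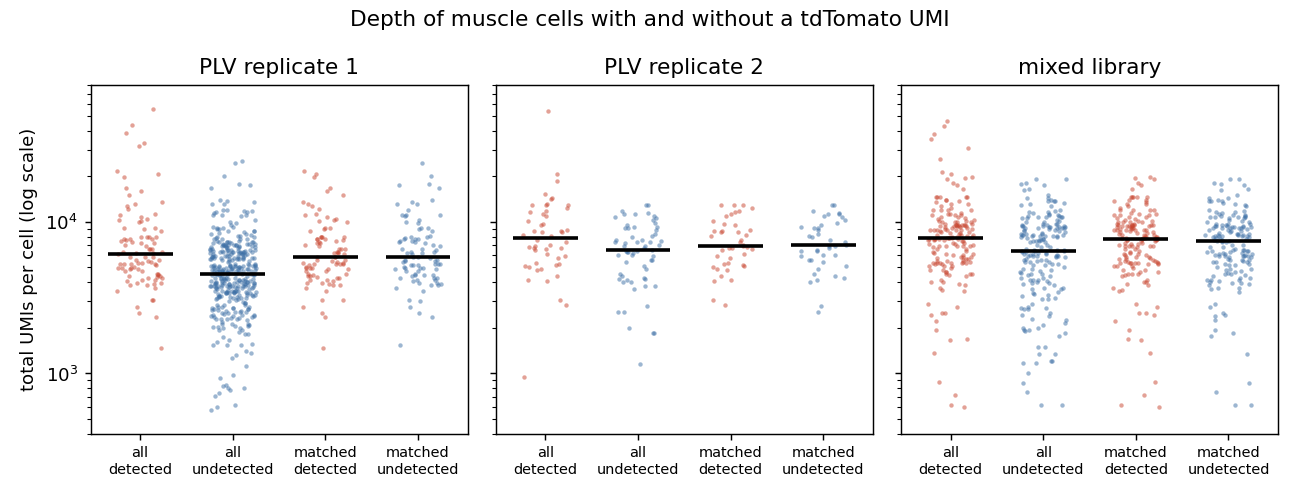
Total UMIs per muscle cell on a log scale (y axis) for all detected, all undetected, matched detected and matched undetected cells (x axis), 1 panel per library, with a point per cell and a bar at the median. Detected cells sit higher before pairing, and the medians of the paired groups lie close together.

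The detected cells without a partner were mostly the deepest ones. There were 5 in PLV replicate 1, 8 in PLV replicate 2 and 8 in the mixed library, with median totals of 38379, 14863 and 32917.5 UMIs. At least 3 of the 10 blood endothelial markers (Pecam1, Cdh5, Kdr, Flt1, Emcn, Plvap, Cldn5, Egfl7, Esam and Fabp4) were present in 5 of the 5, 2 of the 8 and 7 of the 8. Their blood endothelial markers summed to 11119, 3974 and 15697 CPM of the cells' own totals, against 4065, 615.6 and 873.0 CPM in the paired detected cells. The comparison below does not describe these cells.

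The question the design allows is whether muscle cells in which the reporter was seen differ from those in which it was not. UMIs of the paired cells were summed per library and status, giving 3 sums of detected and 3 of undetected cells, and compared by edgeR's quasi-likelihood test with library as a block and Benjamini-Hochberg adjustment at 0.05. tdTomato and the 4 rule genes chose the cells and were not tested. Of 7216 genes tested, 6 passed (0.0831%), 5 higher in detected cells (0.0693%) and 1 lower (0.0139%). Before adjustment, p was under 0.05 for 236 genes on the detected side (3.27%) and for 179 on the undetected side (2.48%). On simulated counts over the same 7216 genes with 200 changed, the test recovered 69.5% of genes changed 2-fold and 98% of those changed 4-fold. The simulation drew sums and not cells. It therefore does not cover genes where 1 cell gives much of a sum, as for some below. DESeq2, run on the same sums, called 1 gene, Fabp4, with 26 genes on the detected side (0.36%) and 12 on the undetected side (0.166%) before adjustment.

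**Figure D3:**
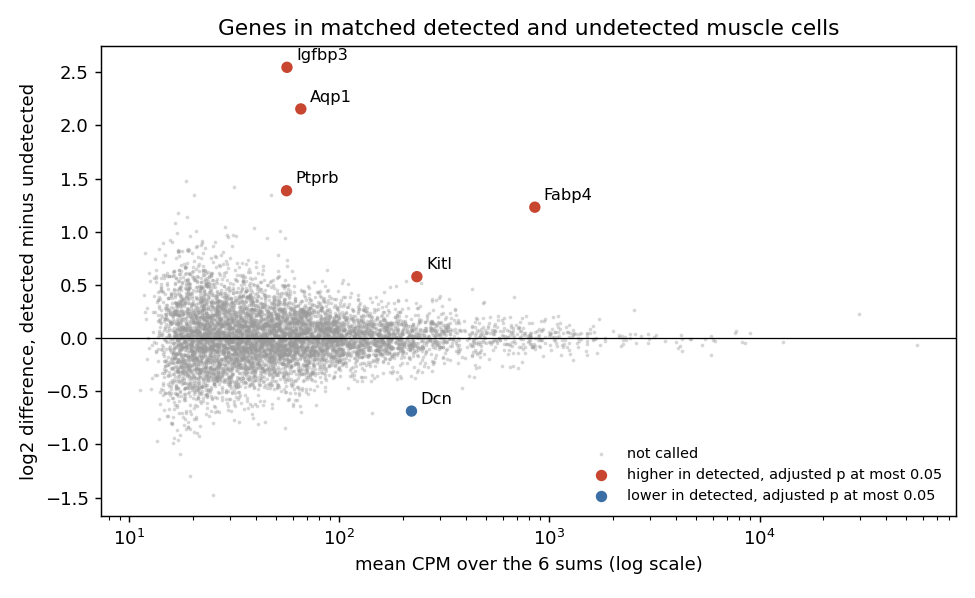
Log2 difference between detected and undetected cells (y axis) against the mean CPM over the 6 sums on a log scale (x axis) for the 7216 genes tested, with genes of adjusted p at most 0.05 named in red (higher in detected) and blue (lower). Away from the 6 named genes the cloud centres on 0 and narrows as the level rises.

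Of the 5 genes called higher, Fabp4, Aqp1 and Ptprb are well known from the endothelium that lines blood vessels. This grouping was not tested, and Aqp1 and Ptprb are not on the list of blood endothelial markers. Fabp4, a fatty acid carrier of capillary endothelium and adipocytes (chr3:10204088-10208576, minus strand), stood at 2581 CPM in detected and 949.1 CPM in undetected cells of PLV replicate 1, with the CPM of the paired sums scaled by TMM factors here and below. Detected cells had 430.2 CPM against 182.3 CPM in PLV replicate 2, and 641.3 CPM against 326.2 CPM in the mixed library. It was higher in detected cells in all 3 libraries, and the fitted difference was 1.23 ± 0.09 in log2 units (± SE, 3 pairs of sums; edgeR, adjusted p = 3.46e-10). About as many cells held it on both sides: 38 and 35 of 89, 16 and 12 of 42, and 38 and 37 of 166 in the same order. The difference lay in how much the cells that held it had, and a single detected cell of PLV replicate 1 gave 403 of the 1720 UMIs there.

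Aqp1, a water channel of capillary endothelium and red cells (chr6:55336432-55348555, plus strand), stood at 249.1 and 41.1 CPM in detected and undetected cells of PLV replicate 1. The values were 12.3 against 30.4 CPM in PLV replicate 2 and 51.0 against 9.44 CPM in the mixed library, so the direction in PLV replicate 2 was the opposite one. The fitted difference was 2.15 ± 0.30 (edgeR, adjusted p = 1.49e-04). It rested on few cells, with a UMI in 13 detected and 8 undetected cells of PLV replicate 1 and in 5 and 9 of the mixed library. In the mixed library more undetected than detected cells thus held it. Without PLV replicate 1 the difference was 1.49 (adjusted p = 1.00).

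Igfbp3, a secreted binding protein of insulin-like growth factors (chr11:7206086-7213923, minus strand), had 262.6 CPM in detected and 10.3 CPM in undetected cells of PLV replicate 1. In PLV replicate 2 it had 18.4 and 12.2 CPM, and in the mixed library 18.1 and 16.3 CPM. The call rested on PLV replicate 1: the difference was 2.55 ± 0.43 over all libraries (edgeR, adjusted p = 0.00374) and 0.25 without that library (adjusted p = 1.00). A gene was tested where at least 3 of the 6 sums reached 15.8 CPM, and Igfbp3 reached it in 3 detected and 0 undetected sums, so it was tested only through the side where it is high. Of its 175 UMIs in detected cells of PLV replicate 1, 102 came from 1 cell.

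Ptprb, the vascular endothelial receptor phosphatase VE-PTP (chr10:116275523-116389535, plus strand), had 199.6 and 77.7 CPM in detected and undetected cells of PLV replicate 1. It had 9.22 against 9.12 CPM in PLV replicate 2 and 31.2 against 9.44 CPM in the mixed library. The difference was 1.39 ± 0.24 (edgeR, adjusted p = 0.00374), with both sides nearly level in PLV replicate 2. It reached the level needed for the test in 2 detected and 1 undetected sums, the detected side of the mixed library among them, so the side where it is high decided that it was tested. Without PLV replicate 1 the gene was too low to be tested.

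Kitl, the ligand of the Kit receptor (chr10:100015630-100100416, plus strand), was the called gene most widely held among PLV cells. Its level was 432.1 against 268.4 CPM in detected and undetected cells of PLV replicate 1, 307.3 against 206.6 CPM in PLV replicate 2, and 107.7 against 80.7 CPM in the mixed library. Detected cells were higher in all 3 libraries, with 63 and 55, 23 and 18, and 35 and 31 cells holding a UMI. The difference of 0.58 ± 0.12 passed narrowly (edgeR, adjusted p = 0.0416), and 6 of 22 alternative settings called it. Without PLV replicate 1 it was 0.49 (adjusted p = 1.00), and without PLV replicate 2 it was 0.57 (adjusted p = 0.0742).

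Dcn, decorin, a small proteoglycan made in bulk by fibroblasts (chr10:97479609-97518143, plus strand), was the gene that fell. It had 87.0 CPM in detected and 126.2 CPM in undetected cells of PLV replicate 1, and 295.2 against 557.2 CPM in the mixed library. In PLV replicate 2 the order was the other way, 132.1 and 124.6 CPM. The difference was -0.69 ± 0.13 (edgeR, adjusted p = 0.0253). In the mixed library 1 undetected cell gave 151 of the 649 UMIs, and without that library the difference was -0.30 (adjusted p = 0.904). Without PLV replicate 1 it was -0.71 (adjusted p = 0.420). With predicted doublets left out it was -0.44 (adjusted p = 0.394).

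**Figure D4:**
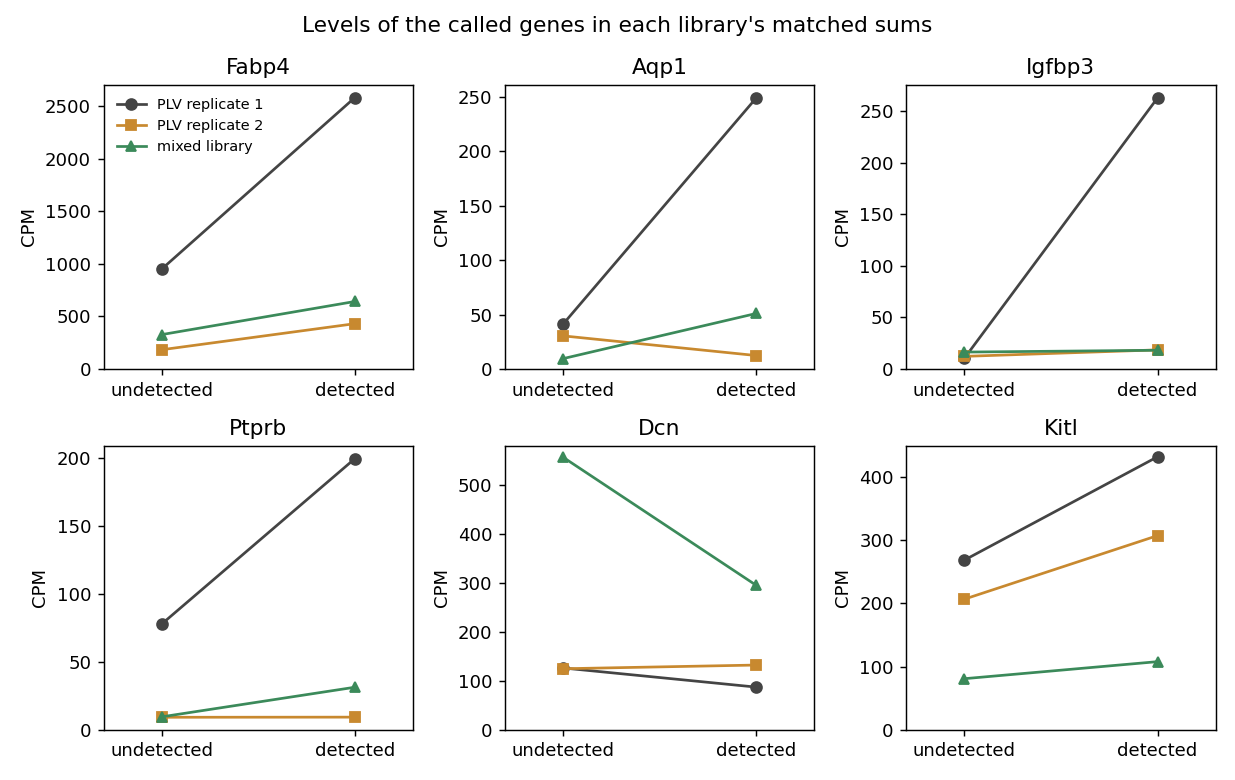
CPM (y axis, from 0) of each of the 6 called genes in undetected and detected cells (x axis), with a line per library joining its paired sums. Fabp4 and Kitl slope upward in all 3 libraries, and Igfbp3 does so steeply in PLV replicate 1 alone.

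The genes of lowest p among those that did not pass and had 1 direction in all 3 libraries were of mixed kinds. Col4a1, a basement membrane collagen, had a difference of 0.46 (edgeR, adjusted p = 0.0814). Pdgfb, the growth factor by which endothelium recruits mural cells, had 1.42 (adjusted p = 0.0814), and Pecam1 had 1.34 (adjusted p = 0.0900). Pdgfb reached the level needed for the test through its detected sum in PLV replicate 2, at 52.2 against 12.2 CPM. For Pecam1 it was the detected sum of the mixed library, so the side where each is high decided that it was tested. Ly6e, a membrane protein induced by interferon, had 0.94, and Fosl2, a member of the AP-1 family, had 0.49. Ly6e too was tested through the detected side, with 18.4 against 6.08 CPM in PLV replicate 2 and 26.3 against 13.7 CPM in the mixed library. In the other direction Spock2, a matrix proteoglycan, had -0.70 (adjusted p = 0.0799). Its level was 55.5 against 93.9 CPM in detected and undetected cells of PLV replicate 1, 92.2 against 249.2 CPM in PLV replicate 2, and 156.2 against 207.8 CPM in the mixed library. Gdf10, Ppfibp1, Ptprd, Clec3b, Tle3, Gstm1, Fst and Medag had differences between -0.36 and -0.80, with adjusted p from 0.450 to 0.506. None of these passed.

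Markers of blood endothelium, of which the called Fabp4 is 1, were also measured as a list. The 10 markers summed to 3860 CPM in detected and 1832 CPM in undetected paired cells of PLV replicate 1, 605.4 against 364.6 CPM in PLV replicate 2, and 947.2 against 534.0 CPM in the mixed library. The sum in detected cells was 2.11, 1.66 and 1.77 times that in undetected cells, and Fabp4 gave the largest part of each sum. Without Fabp4 the other 9 summed to 1280 against 883.1 CPM, 175.2 against 182.3 CPM and 305.9 against 207.8 CPM in the same order, ratios of 1.45, 0.96 and 1.47. Esam gave most of these latter sums in PLV replicate 2, at 144.4 against 151.9 CPM. It did so too in the mixed library, at 171.8 against 148.5 CPM. Many muscle cells held an Esam UMI, 57 and 53 of 89 detected and undetected cells in PLV replicate 1. The counts were 27 and 22 of 42 in PLV replicate 2 and 100 and 95 of 166 in the mixed library. No marker of the list was at 0. Of the 10, 5 passed the filter on low counts and 1, Fabp4, was called higher, where 0.0693% of all genes tested were. Pecam1 passed it, as Ptprb did, through the detected cells of the mixed library, with 23.8 against 0.859 CPM there, so no median over the 5 is given. All 10 passed without PLV replicate 2, with a median difference of 0.50, and without the mixed library, with 0.48. Both of those sets hold PLV replicate 1, where the list summed highest, so they are not independent. Without PLV replicate 1, 4 passed, with a median of 0.35 over fewer members. Esam and Flt1, a junction protein and a VEGF receptor, were lower in detected cells of PLV replicate 2. The other 5 markers were too low for the test and went both ways in PLV replicate 1. There Cdh5, an adhesion protein of endothelial junctions, had 98 UMIs in detected and 50 in undetected cells, and Kdr, another VEGF receptor, had 33 and 51. Emcn had 35 and 37, Cldn5 108 and 101, and Egfl7 91 and 85. In the mixed library the 5 had from 4 to 14 UMIs in detected and 0 to 2 in undetected cells, and in PLV replicate 2 at most 2 in either group.

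Some barcodes carried muscle genes together with several genes of the blood endothelial list. Esam and Fabp4 are on that list and many muscle cells held them, so 3 of its markers need not mean an endothelial part. In the mixed library 33 muscle cells had at least 3 markers, while 11 had a Pecam1 or Cdh5 UMI. These numbers lay closer in PLV replicate 1, at 53 and 43, and both were 7 in PLV replicate 2. At least 3 endothelial markers were present in 13 detected and 10 undetected paired cells of PLV replicate 1, 4 and 1 in PLV replicate 2, and 15 and 11 in the mixed library. Over all muscle cells the barcodes with such markers were the deeper ones, with a median of 9841 UMIs against 4606 for the rest in PLV replicate 1. A larger part of them had a tdTomato UMI, at 18 of 53 (34.0%) against 76 of 425 (17.9%) for PLV replicate 1, 6 of 7 against 44 of 106 for PLV replicate 2, and 22 of 33 (66.7%) against 152 of 334 (45.5%) for the mixed library. Their tdTomato level, a description like the share, went both ways against the rest. It was 45.8 CPM against 43.7 CPM in PLV replicate 1, 109.5 against 90.4 CPM in PLV replicate 2, and 108.9 against 128.4 CPM in the mixed library, with overlapping intervals in each. Split instead by a Pecam1 or Cdh5 UMI, it was 46.9 against 43.5 CPM, 90.3 against 92.8 CPM and, over 11 against 356 cells of the mixed library, 67.2 (39.2 to 107.6) against 130.6 CPM (117.3 to 145.1). The last intervals did not overlap, with the lower level in the 11 cells that held endothelial UMIs. Those 11 cells had 17 tdTomato UMIs and were deeper, with a median of 19886 UMIs against 7255. In that library the tdTomato level was lower in deeper cells, so depth and endothelial UMIs cannot be told apart here.

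With these barcodes removed, an alternative chosen after the calls were seen, no gene was called. Both removals below pick cells by endothelial genes, so a smaller difference in such genes was partly fixed in advance. Without muscle cells holding at least 3 endothelial markers, pairing gave 76, 38 and 151 pairs, and edgeR called 0 of 6117 genes, with 263 at an unadjusted p under 0.05. The Fabp4 difference was then -0.11, though Fabp4 is itself 1 of the markers used to remove cells. Removing instead every muscle cell with a Pecam1 or Cdh5 UMI, which does not use Fabp4, left 78, 40 and 163 pairs, and edgeR called 0 of 6339 genes with 280 at an unadjusted p under 0.05. Fabp4 then had a difference of 0.10 (adjusted p = 1.00). Kitl had 0.43 (adjusted p = 0.705) and Dcn -0.58 (adjusted p = 0.310), closer to their values in all pairs. Aqp1, Igfbp3 and Ptprb no longer had enough UMIs to be tested in either set, so neither set says anything of them. Why the calls were lost was not tested.

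No gene of the contractile apparatus passed the test. All 24 genes of the list were tested and 0 were called. At an unadjusted p under 0.05, 0 were higher and 1 lower, beside 3.27% and 2.48% of all genes tested. The median difference was -0.01, with a range from -0.26 to 0.17. Of the 24, 3 were higher and 7 lower in all 3 libraries, against 14.9% higher and 12.5% lower over all genes tested. Acta2, smooth muscle actin, had 10417 against 11688 CPM in detected and undetected cells of PLV replicate 1, 13081 against 12072 CPM in PLV replicate 2, and 14868 against 15352 CPM in the mixed library. Its direction differed between libraries, and the fitted difference was -0.03 ± 0.07 (edgeR, adjusted p = 0.998). Tagln, an actin-binding protein, had a difference of 0.05 ± 0.07, and Myl6, a myosin light chain, 0.02 ± 0.07.

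The rule genes are given here without a test. Myh11, smooth muscle myosin heavy chain, had 4539 against 5219 CPM in detected and undetected cells of PLV replicate 1, 6751 against 6357 CPM in PLV replicate 2, and 7412 against 7535 CPM in the mixed library. Cnn1, calponin, had 402.1 against 498.8 CPM, 608.4 against 589.5 CPM and 1412 against 1667 CPM in the same order. Fewer detected cells held it in each library, 67.4% against 82.0%, 71.4% against 83.3% and 86.1% against 89.2%. Synpo2 was lower in detected cells in all 3 libraries, at 720.2 against 749.6 CPM, 848.1 against 908.5 CPM and 959.5 against 1017 CPM, while Lmod1 went both ways. All 4 rule genes were present in 61.8% of detected and 74.2% of undetected cells of PLV replicate 1, 71.4% of both in PLV replicate 2, and 81.3% and 84.9% in the mixed library.

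Channels and calcium handling genes gave no call. Of 36 listed, 24 were tested, with a median difference of -0.04. At an unadjusted p under 0.05, 0 were higher and 2 lower, where 3.27% and 2.48% of all genes tested were. These 2 were Ano1 and Cacna1c, the pore of the L-type calcium channel, the latter named after its value was seen. Ano1 had 126.0 against 165.8 CPM in detected and undetected cells of PLV replicate 1, 187.4 against 288.7 CPM in PLV replicate 2, and 190.7 against 224.9 CPM in the mixed library. It was lower in detected cells in all 3 libraries, and the difference of -0.37 ± 0.12 did not pass (edgeR, adjusted p = 0.577). Itpr1, a calcium release channel of the sarcoplasmic reticulum, had 0.07 ± 0.11, and Cacna2d1, an auxiliary calcium channel subunit, -0.05 ± 0.12. Atp2a2, the calcium pump of the sarcoplasmic reticulum, had -0.04 ± 0.08.

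The next list holds genes that set apart kinds of muscle cells in these libraries. It was drawn from earlier results on the same cells and is no independent evidence. Of its 6 genes, Col12a1 was too low for the test and 0 of the other 5 were called. Before adjustment p was under 0.05 for 2 on the detected side, Pln and Sorbs2, and for 1 on the undetected side, Ano1 (edgeR), against 3.27% and 2.48% of all genes tested. Since the 5 went both ways, their median of -0.23 says little of any one of them. Pln, phospholamban, the brake on the calcium pump of the sarcoplasmic reticulum, had 564.1 against 454.7 CPM in detected and undetected cells of PLV replicate 1, 448.6 against 416.3 CPM in PLV replicate 2, and 136.5 against 103.9 CPM in the mixed library. It was higher in detected cells in all 3 libraries, and the difference of 0.28 ± 0.10 did not pass (edgeR, adjusted p = 0.749). Sorbs2 had 0.18 ± 0.08 (adjusted p = 0.809). P2rx1 had -0.24 ± 0.14 (adjusted p = 0.935). Hmcn2, a matrix protein, had -0.23 ± 0.12 (adjusted p = 0.893).

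**Figure D5:**
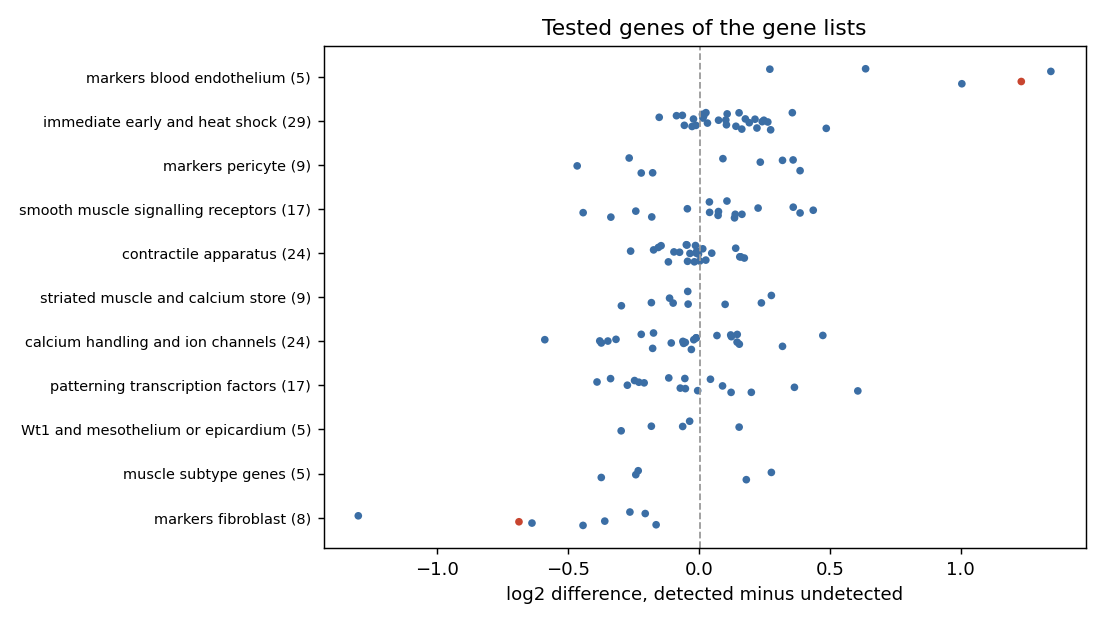
Log2 difference between detected and undetected cells (x axis) for the tested genes of 11 gene lists (y axis, number tested in brackets), with a point per gene, called genes in red and a dashed line at the median of all genes tested. The contractile and channel genes straddle 0, and the few blood endothelial and fibroblast markers shown are those that passed the filter on low counts, some through the side where they are high.

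Most genes that mark mesothelium or epicardium, where Wt1 is best known, were at or near 0 in these cells. Of 24 genes of mesothelium or epicardium, 12 had 0 UMIs in the paired cells, among them Wt1, Tcf21, Aldh1a2, Upk1b, Upk3b and Msln. The 5 tested had a median difference of -0.06, and 0 were called. At an unadjusted p under 0.05, 0 were higher and 0 lower, beside 3.27% and 2.48% of all genes tested. Spry1, an inhibitor of receptor tyrosine kinase signalling, had -0.03 ± 0.20, Aldh1a1, an enzyme of retinoic acid synthesis, -0.30 ± 0.24, and Itga4, an integrin subunit, -0.18 ± 0.24.

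Transcription factors that pattern limb and trunk tissue likewise gave no call. Of 44 listed, 17 were tested and 11 had 0 UMIs. The median difference was -0.05, and before adjustment p was under 0.05 for 2 genes on the detected side and 1 on the undetected side, beside 3.27% and 2.48% of all genes tested. Prrx1, a homeobox factor of limb mesenchyme, had 361.6 against 470.9 CPM in detected and undetected cells of PLV replicate 1, 596.1 against 717.1 CPM in PLV replicate 2, and 807.4 against 931.5 CPM in the mixed library. It was lower in detected cells in all 3 libraries, by a difference of -0.27 ± 0.09 that did not pass (edgeR, adjusted p = 0.509). Twist1, a factor of mesenchymal cells, had -0.05 ± 0.13 and Foxc1, a factor of vessel development, 0.09 ± 0.18.

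The reporter's neighbourhood served as a check of the locus. Gt(ROSA)26Sor, the non-coding gene into which the reporter is inserted (chr6:113067428-113077333, minus strand), had 82.5 against 70.4 CPM in detected and undetected cells of PLV replicate 1, 58.4 against 63.8 CPM in PLV replicate 2, and 33.7 against 37.8 CPM in the mixed library. Its difference was 0.01 ± 0.21 (edgeR, adjusted p = 0.999), and that of Setd5 was -0.08 ± 0.15 (adjusted p = 0.996). Thumpd3, a further gene there, was too low to be tested.

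Immediate early and heat shock genes, which respond to tissue dissociation, gave no call. Of 30 listed names, 29 were tested and Cyr61, an older name of the listed Ccn1, was not matched, and before adjustment p was under 0.05 for 9 on the detected side and 0 on the other. Over all genes tested these shares were 3.27% and 2.48%. The median difference was 0.11, and 10 were higher and 0 lower in all 3 libraries. Of all genes tested, 14.9% were higher and 12.5% lower in all 3. Egr1, an early growth response factor, had 3581 against 3235 CPM in detected and undetected cells of PLV replicate 1, 2381 against 1492 CPM in PLV replicate 2, and 2256 against 2156 CPM in the mixed library, with a difference of 0.26 ± 0.08 (edgeR, adjusted p = 0.533). Junb, an AP-1 subunit, had 0.18 ± 0.08 (adjusted p = 0.786) and Fos, its partner in AP-1, 0.03 ± 0.07. Summed over the list, detected cells had 1.05, 1.06 and 1.07 times the level of undetected cells.

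Receptors and signalling genes of smooth muscle gave 0 calls among 17 tested of 25, with a median of 0.08. Notch3, the receptor that matures mural cells, had 0.11 ± 0.08, and Gucy1a1, a subunit of the nitric oxide receptor, -0.04 ± 0.08. Rgs5, a regulator of G protein signalling also on the pericyte list, had 1082 against 661.6 CPM in detected and undetected cells of PLV replicate 1, 629.9 against 714.1 CPM in PLV replicate 2, and 562.4 against 413.8 CPM in the mixed library. Its difference of 0.39 ± 0.10 did not pass (edgeR, adjusted p = 0.336) and had the opposite sign in PLV replicate 2. All 9 pericyte markers were tested, with 0 called and a median of 0.09.

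Of 14 fibroblast markers, 8 were tested and 1 was called lower. This was Dcn, the 1 gene called lower among all 7216 tested (0.0139%). Dpt and Clec3b, both genes of the matrix, reached the level needed for the test in 1 detected and 2 undetected sums, so no count below p or median over the 8 is given. The list summed to 2405 against 2572 CPM in detected and undetected cells of PLV replicate 1, 2532 against 2795 CPM in PLV replicate 2, and 6364 against 8522 CPM in the mixed library, and none of its members was at 0. The ratio of the sums was 0.94, 0.91 and 0.75, and its part in the Dcn result was not tested. Col3a1, Col1a2 and Gsn, all matrix or cytoskeletal genes strong in fibroblasts, had differences of -0.16 ± 0.08, -0.26 ± 0.12 and -0.20 ± 0.07, with adjusted p from 0.730 to 0.872 by edgeR. Col1a2 was higher in detected cells of both PLV libraries, by 0.13 and 0.36, and lower in the mixed one (-0.68). In PLV replicate 1, 4 of the 8 tested were higher in detected cells: Col1a2, Col1a1 (232.6 against 181.9 CPM), Col3a1 (670.7 against 660.1 CPM) and Dpt (16.5 against 13.2 CPM).

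The remaining marker lists held little. Leukocyte markers summed to between 4.11 and 15.4 CPM in every group, and Ptprc, Csf1r, Cd3e and Cd79a were at 0. Lymphatic endothelial markers summed to 94.5 against 231.8 CPM in detected and undetected cells of PLV replicate 1, 101.4 against 72.9 CPM in PLV replicate 2, and 36.2 against 24.9 CPM in the mixed library, over 7 of the 8, since Ccl21a is the name of more than 1 gene ID in the files and was not matched. Red cell markers, haemoglobin genes that share reads among near-identical copies, are uncertain one by one. They summed to 1295 CPM in detected and 729.1 CPM in undetected cells of PLV replicate 1, and to between 129.1 and 145.9 CPM in the other libraries. Of the Schwann, skeletal muscle, keratinocyte and cell cycle lists, 1, 1, 1 and 3 genes were tested and 0 were called.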

How the data were processed

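Deposited UMI counts per gene and barcode (raw counts, not normalised) were used from 3 droplet libraries (10x Genomics 3' chemistry, per the labels' protocols). The authors' tool was Cell Ranger, version 6.1.2 for the PLV files and 4 for the mixed one, per the file headers. The submitters' processing notes name GRCm38 and Seurat, and the cell filter behind the PLV files is not given in the sources used here. The hashtag library was not used. Of 32286 gene IDs, 32235 were found in GENCODE M21.

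The cell filter asked for 500 UMIs and 300 genes or more, with mitochondrial UMIs up to 15% and haemoglobin UMIs up to 20%. Pairs were chosen by optimal assignment on log10 UMI totals without tdTomato, within 0.05. Pair sums (317209 to 1319181 UMIs) were tested with edgeR 4.0.16 (TMM factors, filterByExpr, library as block, 2 residual degrees of freedom), with DESeq2 1.42.0 as an alternative. CPM used TMM-scaled totals for gene sums. Doublets were predicted with scrublet in scanpy 1.11.5 and kept. The test was checked on simulated counts. Libraries, not cells, are the replicates; each pools 2 mice. Members and gene lists were chosen with earlier results of these data known. Genes were named if called (at most 15 per direction), else filled to 10 by lowest p with 1 direction in all 3 libraries, plus the 3 highest-level tested genes of each list, the rule genes, Wt1 and the 6 subtype genes.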

Additional observations from a re-analysis of the deposited data

Results flagged for a closer look

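Hmcn2 went one way in both PLV libraries and not in the mixed one. Its log2 difference, detected minus undetected, was -0.50 in PLV replicate 1 and -0.38 in PLV replicate 2, and 0.0042 in the mixed library. The difference between the kinds of library was not tested, and the mixed value is close to no difference. The gene had a UMI in 102 detected and 102 undetected paired cells there.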

How the results depend on the processing

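Of 6 called genes (5 higher, 1 lower), the count was 38 (33 and 5) when pairs could differ by up to 0.1 in log10 total, 195 (176 and 19) with no matching, and 46 (34 and 12) with no filter on low counts. It was 1 (1 and 0) with at least 2 tdTomato UMIs, with exactly 1 UMI (an alternative added after the data were seen) and by DESeq2. With all 4 rule genes required it was 2 (1 and 1), both of them other genes, Hbb-bs (1.04) and Col1a1 (-0.51). No gene fell with at most 10% mitochondrial UMIs (5 rose, 0 fell) or without predicted doublets (4 rose, 0 fell). Leaving out 1 library gave 1 to 17 calls, 1 to 15 higher and 0 to 6 lower. Without PLV replicate 1 the count was 1, Fabp4; without PLV replicate 2 it was 16 and without the mixed library 17.

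The replicate block pairs sums of 1 library, from the same animals. With no replicate block edgeR called 0 genes (0 higher, 0 lower), with 31 at an unadjusted p under 0.05. Without barcodes that also carried at least 3 markers of another cell type it called 0 (0 and 0) of 1252 genes, with 28 at an unadjusted p under 0.05 and 3 pairs in the mixed library. With the fibroblast list not used for that removal it called 0 (0 and 0) of 5327, with 209 at an unadjusted p under 0.05; Fabp4, itself a marker used for the removal, was then -0.14 and Aqp1 -0.31, both opposite in sign and not called. Without cells holding at least 3 endothelial markers, or holding a Pecam1 or Cdh5 UMI, the calls were 0 (0 and 0), and Fabp4, 1 of those markers, was -0.11 in the former, not called. These sets also hold fewer cells and genes. The causes of these shifts were not tested.

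The share with a tdTomato UMI moved from 19.7%, 44.2% and 47.4% to 5.23%, 17.7% and 27.2% with at least 2 UMIs, to 7.39%, 13.5% and 17.7% after thinning to 1500 UMIs and to 4.94%, 8.04% and 11.7% after thinning to 1000. Without barcodes carrying other markers it was 15.9% in PLV replicate 1, 46.7% in PLV replicate 2 and 28.6% in the mixed library, the last from 6 of 21 cells (11.3% to 52.2%) with a median of 1949 UMIs and a tdTomato level of 120.3 CPM, where all its muscle cells had 7471 and 125.2. Depth limits all of this: exactly 1 tdTomato UMI was seen in 69 of 94, 30 of 50 and 74 of 174 detected cells, and the paired sums hold 317209 to 1319181 UMIs.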

Other observations

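Without matching on depth, the sums of all detected and all undetected muscle cells differed in more genes, endothelial markers among them. Of 9023 genes then tested, edgeR called 195. Among these were 9 of the 10 blood endothelial markers and 3 of the 4 tested of 8 lymphatic endothelial markers. In the paired sums 5 and 1 of them passed the filter on low counts, so which members are tested moves with the cells included, and no median is given. Fabp4 had a difference of 2.29 there. No contractile gene of the 24 tested was called, and their median was -0.16, against -0.01 over all genes. The blood endothelial markers summed to 5771 CPM in all detected and 1683 CPM in all undetected cells of PLV replicate 1, 1694 and 420.4 CPM in PLV replicate 2, and 3317 and 471.6 CPM in the mixed library. The 21 detected cells without a partner are in these sums and not in the paired ones.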
